A study of Mus musculus with 22 samples.

Results

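Genes imprinted by maternal H3K27me3 were followed in 22 RNA-seq libraries of mouse oocytes and early embryos. They were 10 genes taken by symbol from the 22592 symbols of the tables: Gab1, Phf17 (also named Jade1), Sfmbt2, Slc38a4, Smoc1, Sall3, Otx2, Sh3gl3, Prdm11 and Runx1. All 10 were listed in each of the 4 tables, and none was chosen by its level here. The libraries were made by the Smart-seq2 protocol from total RNA, and levels are FPKM, fragments per kilobase of transcript scaled to the mapped fragments of the library. Growing oocytes of postnatal day 7 (P7) came as Setd2+/- controls and Setd2-/-, with 2 libraries each. Full-grown oocytes (FGO), zygotes and embryos at 48 h each had 2 libraries labelled Setd2_Con and 2 labelled Setd2_KO, which the series describes as a maternal knockout of Setd2, the enzyme that trimethylates lysine 36 of histone H3. Their females were 8 weeks old; full-grown oocytes were taken 48 h after PMSG and zygotes 30 h after hCG. At 48 h the controls were at the 2-cell stage and the knockout embryos at the 1-cell stage. Embryos at the 8-cell stage made by spindle transfer (ST) came as Setd2+/- and Setd2-/-, again with 2 libraries each and a female age of 8 weeks. Full-grown oocytes labelled Dnmt3l_KO and Dnmt3l_Con gave 1 library each, also taken 48 h after PMSG from females 8 weeks old. The driver of the deletion, the father's genotype, the number of oocytes or embryos in a library, and which component of the transferred embryos was mutant are not given in the sources used here.

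Most imprinted genes are marked by DNA methylation of 1 parental allele, but a smaller set is silenced on the maternal allele by H3K27me3, the Polycomb mark that PRC2 lays down in the growing oocyte. The mark is carried through fertilization, so that the paternal copy is the one expressed in the preimplantation embryo. For most of these genes the imprint is lost after implantation in the embryo proper, and a few, among them Gab1, Sfmbt2, Slc38a4 and Phf17, keep it in extraembryonic tissue. In oocytes, H3K36me3 and H3K27me3 occupy largely separate regions, and H3K36me3 guides DNA methylation there. FPKM sums both parental alleles, so the values below are total levels and not imprinting, and in a bulk library fewer cells and less RNA per cell cannot be told apart.

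The promoters of 4 members are shown because limma, with all libraries, called these genes between genotypes within a stage: Gab1, Phf17 and Slc38a4 at 48 h, and Runx1 in zygotes. The Slc38a4 and Runx1 calls were lost without single libraries, as given below. Each window runs 5′ to 3′ on the gene's strand from 250 bases before to 50 bases after a RefSeq start site on GRCm38.p6. Capitals mark each CG dinucleotide, the site of DNA methylation.
Gab1: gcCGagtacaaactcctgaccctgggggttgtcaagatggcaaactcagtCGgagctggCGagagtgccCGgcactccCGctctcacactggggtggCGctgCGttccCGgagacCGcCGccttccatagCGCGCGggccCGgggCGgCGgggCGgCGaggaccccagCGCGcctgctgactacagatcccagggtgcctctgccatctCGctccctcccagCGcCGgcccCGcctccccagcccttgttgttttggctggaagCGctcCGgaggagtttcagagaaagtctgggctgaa
Phf17: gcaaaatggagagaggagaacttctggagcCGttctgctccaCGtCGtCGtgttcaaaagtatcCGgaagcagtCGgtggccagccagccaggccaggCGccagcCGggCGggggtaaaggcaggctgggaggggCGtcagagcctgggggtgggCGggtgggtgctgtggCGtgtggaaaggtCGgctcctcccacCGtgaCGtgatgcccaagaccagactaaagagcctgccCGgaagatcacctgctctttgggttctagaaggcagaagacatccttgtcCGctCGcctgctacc
Slc38a4: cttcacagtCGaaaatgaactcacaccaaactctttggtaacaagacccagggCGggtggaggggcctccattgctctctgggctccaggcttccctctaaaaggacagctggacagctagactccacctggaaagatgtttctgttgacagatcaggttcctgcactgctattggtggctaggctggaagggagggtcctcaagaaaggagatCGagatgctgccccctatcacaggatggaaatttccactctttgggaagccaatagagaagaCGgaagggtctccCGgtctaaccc
Runx1 upstream start: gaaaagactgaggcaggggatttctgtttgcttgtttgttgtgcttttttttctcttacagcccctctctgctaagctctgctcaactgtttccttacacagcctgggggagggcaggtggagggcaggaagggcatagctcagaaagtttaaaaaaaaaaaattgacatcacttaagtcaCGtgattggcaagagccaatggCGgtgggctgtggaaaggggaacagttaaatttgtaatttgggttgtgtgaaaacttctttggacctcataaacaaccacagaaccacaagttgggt
Runx1 downstream start: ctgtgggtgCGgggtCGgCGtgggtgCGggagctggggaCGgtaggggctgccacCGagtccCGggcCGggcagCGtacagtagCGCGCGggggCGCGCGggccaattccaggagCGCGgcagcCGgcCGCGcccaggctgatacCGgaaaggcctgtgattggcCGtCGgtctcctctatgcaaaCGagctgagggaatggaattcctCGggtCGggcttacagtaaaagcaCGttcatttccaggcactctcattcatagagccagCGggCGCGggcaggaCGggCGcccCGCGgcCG
The Gab1 window (chr8:80880470-80880769, minus strand) held 26 CG, a number that 16.9% of 32851 RefSeq windows of this length reach. The Phf17 window (chr3:41555484-41555783, plus strand) held 18 (29.7% of windows) and the Slc38a4 window (chr15:97055907-97056206, minus strand) held 5 (62.0%), below the median of 7. Runx1 has a pair of starts that differed most, with 2 CG at chr16:92826025-92826324 (85.9% of windows) and 35 at chr16:92697280-92697579 (7.0%), both on the minus strand. The Gab1 and Phf17 windows are at the first listed of 2 and 4 starts, whose windows held 26 to 28 and 14 to 38 CG, and the 3 Slc38a4 starts held 5 each. Windows were taken for 8 of the 10 members. Smoc1 had no entry and Sall3 was left out by rule, so both are named only.

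From 4 to 6 of the 10 members reached 1 FPKM per library in growing oocytes and at the 8-cell stage, and 0 to 2 in the stages between, where Gab1 in 48 h controls stood highest. At P7, 4 or 5 of the 10 reached 1 FPKM in each library. None did in full-grown oocytes or zygotes. At 48 h it was 1 and 2 in the controls and 0 and 1 in the knockout, and 6 of 10 reached it in every 8-cell library. Of all genes, 46.0% to 46.7% reached 1 FPKM per library at P7 and 39.8% to 40.8% at the 8-cell stage. In the stages between, the share was 40.6% to 44.9%. The members were thus near the all-gene share at P7, above it at the 8-cell stage and below it between, which was not tested. The members' summed level was 15.6 to 23.8 FPKM at P7 and 16.6 to 41.3 at the 8-cell stage, but 0.416 to 1.19 in full-grown oocytes and 0.411 to 1.05 in zygotes. At 48 h it was 3.29 and 3.96 FPKM in controls against 0.768 and 1.49 in the knockout. The tables were normalized separately, so levels at P7 and the 8-cell stage stand beside the others only as values.

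**Figure D1:**
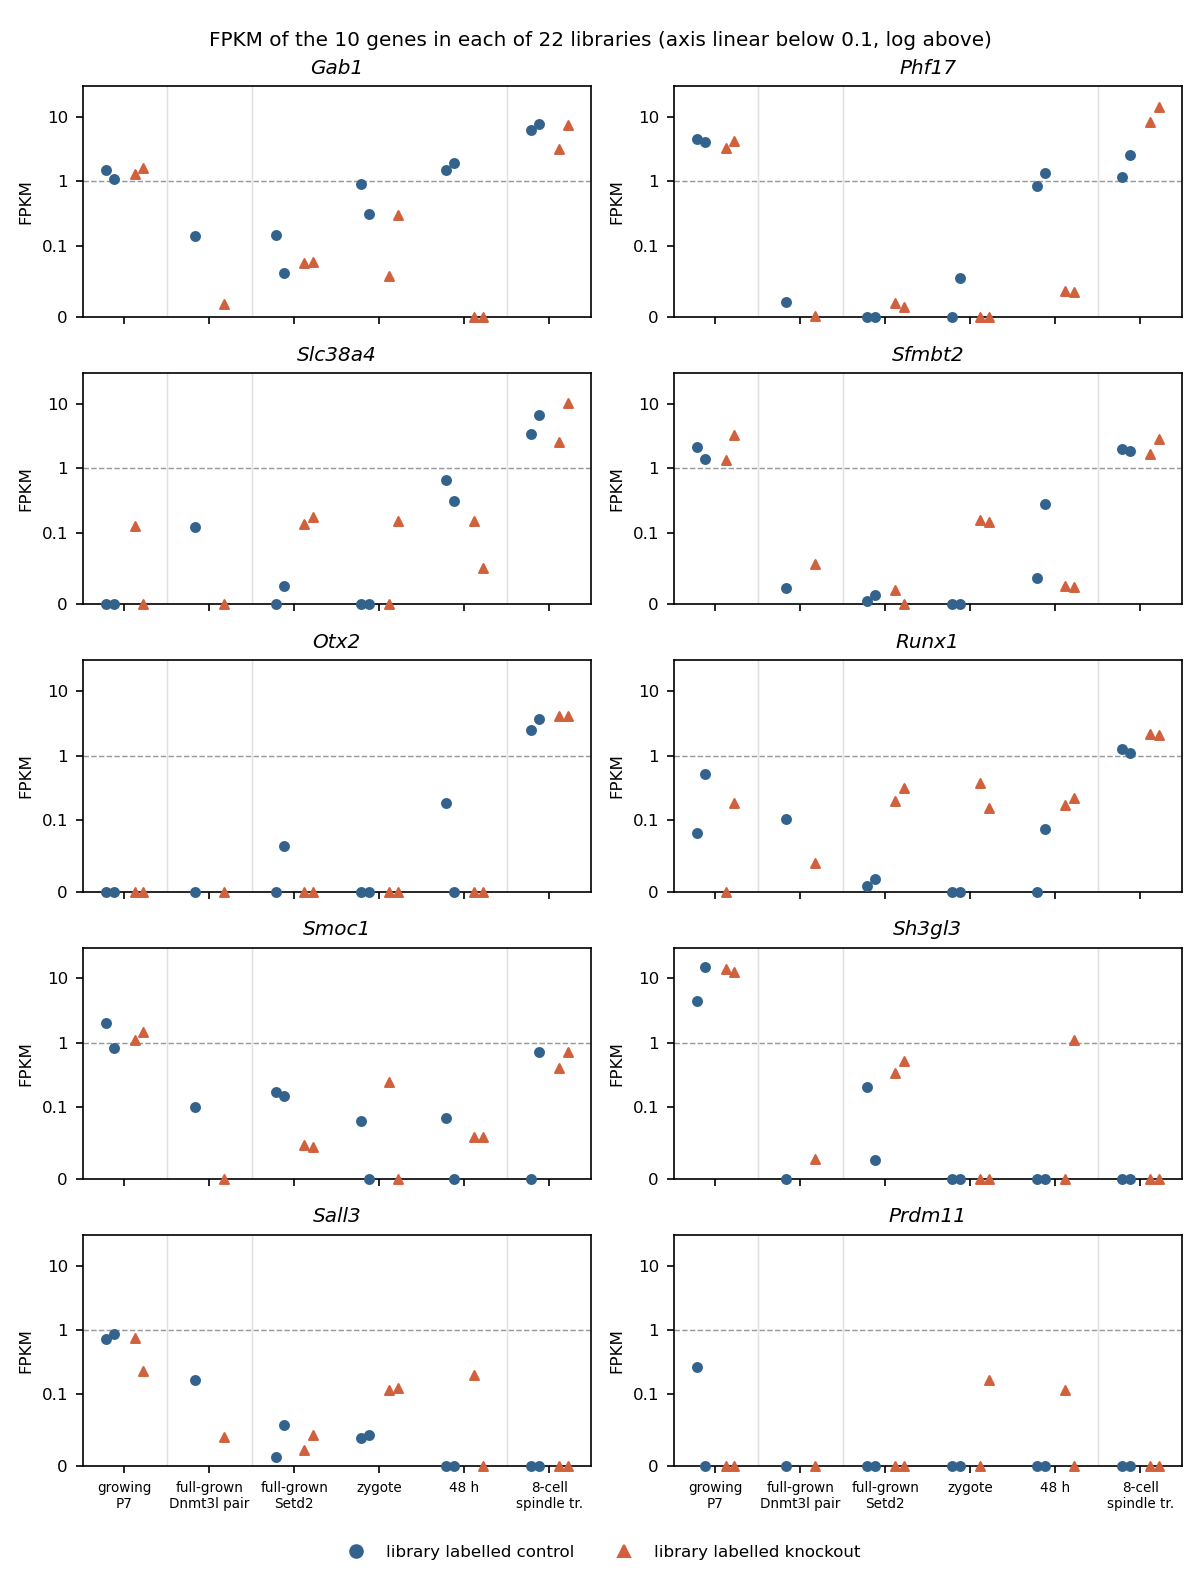
FPKM of each of the 10 genes (axis linear below 0.1 and logarithmic above) in each of the 22 libraries, by stage, with circles for libraries labelled control, triangles for those labelled knockout and a dashed line at 1 FPKM. Most genes sit near 0 in full-grown oocytes and zygotes, and 6 of them lie above 1 FPKM in every 8-cell library.

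Several facts of the libraries bear on these values. Depth was not given; the smallest steps between FPKM values put it near 3.1 to 3.51 M fragments (M for mega) in zygotes, 3.34 to 4.84 at 48 h, 5.39 to 6.18 at P7, 6.18 to 7.66 in 8-cell embryos, 8.24 and 10.07 in the Dnmt3l pair and 9.44 to 22.33 in full-grown oocytes. A value under 1 FPKM rested on between 0 and 34 fragments, and those behind the main differences are given below. An exact 0 need not mean no transcript, since ribosomal protein genes were also listed at 0, and in zygotes unequally: 12 and 13 of 76 in the control libraries against 2 and 3 in the knockout. Setd2 stood at 4.75 and 4.35 FPKM against 0.968 and 0.927 in full-grown oocytes, 12.1 and 8.85 against 1.30 and 1.73 in zygotes and 53.2 and 43.0 against 1.42 and 1.74 at 48 h, apart in each. At P7 it stood at 4.33 and 6.68 FPKM against 3.67 and 3.21 in the libraries labelled knockout, and in ST embryos at 18.2 and 17.1 against 15.4 and 18.1. Dnmt3l stood at 31.7 FPKM in its control and 25.0 in the library labelled knockout. Whole-gene FPKM need not show a deleted exon. Oocyte markers were present in every oocyte library, all 10 at 1 FPKM or more, and all 8 markers of the 8-cell stage in every ST library.

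Gab1 and Slc38a4 act at the cell surface. Gab1 is a docking protein that links activated growth factor receptors to Shp2 and PI3 kinase, and Slc38a4 is a transporter of neutral amino acids that is important in the placenta. Gab1 in controls stood at 0.148 and 0.0622 FPKM in full-grown oocytes, 0.902 and 0.312 in zygotes and 1.48 and 1.93 at 48 h. In the knockout it stood at 0.0762 and 0.0773, then 0.0571 and 0.302, and it was listed at 0 in both libraries at 48 h. So both 48 h controls lay above every other library of that table. In zygotes the genotypes did not overlap either, as for 24.9% of all genes, but by 0.312 against 0.302 FPKM, with about 16 and 5 fragments in controls against 1 and 5. From zygote to 48 h, Gab1 rose in controls by 0.77 on the log2(FPKM + 1) scale (limma adjusted p = 0.00424). Relative to the all-gene median the rise was 1.11. The call was lost with the replicate number as a block (0.65 unshifted, limma adjusted p = 0.0669), a fit that takes the step at replicate 1. It was also lost with no filter and a pseudocount of 0.1 FPKM (1.48, limma adjusted p = 0.0597). In the knockout the step from zygote to 48 h was -0.23 (limma adjusted p = 0.758). The difference between the steps passed the test at -1.37 relative to the median (limma adjusted p = 0.00879). At 48 h Gab1 fell by 1.86 in the knockout relative to that median (SE 0.20, n = 2 libraries per group, limma adjusted p = 5.92e-05), about 25 and 37 fragments against none. The zygote difference of -0.43 did not pass (limma adjusted p = 0.126), but did without the second control zygote library (-0.70, limma adjusted p = 0.0366, in a range of 0.0366 to 0.619 over 11 alternatives).

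Gab1 was the 1 member of 10 that passed the filter of the 12-library table, at least 1 FPKM in at least 2 libraries, and it passed only through the 48 h controls, so a rise into that group, and the differences that include it, were in part fixed by the filter. Among the 12199 genes tested, 73.8% were called between genotypes at 48 h, 30.6% as lower, and 76.1% between zygote and 48 h in controls, 33.4% as higher. The steps differed between genotypes for 66.2% of genes, 29.5% as lower. A call for Gab1 was therefore common at this stage. A fit of all 19451 genes above 0, with no filter, is free of that choice and is used for the members below. For the control step of Gab1 it gave 0.77 (limma adjusted p = 0.00629) and for the difference between steps -1.03 relative to the median (limma adjusted p = 0.0126). It called Gab1 lower at 48 h (limma adjusted p = 0.000235) and in each of 4 fits that left out 1 library (limma adjusted p from 0.00152 to 0.00311).

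Slc38a4 was listed at 0 in both control zygote libraries and stood at 0.667 and 0.317 FPKM in controls at 48 h. In the knockout it was at 0 and 0.151 in zygotes and at 0.155 and 0.0506 at 48 h. Both controls lay above both knockout libraries at 48 h, on about 9 and 5 fragments against 3 and 1. Without a filter Slc38a4 fell by 0.47 in the knockout at 48 h relative to the all-gene median (limma adjusted p = 0.0126). That call was lost without the first control (limma adjusted p = 0.0565) or the second knockout library (limma adjusted p = 0.0768). Its rise of 0.57 from zygote to 48 h in controls (limma adjusted p = 0.00275) held in each of 4 fits that left out 1 library. In full-grown oocytes the order was the other way, with 0 and 0.0259 FPKM in controls against 0.136 and 0.174 in the knockout, about 0 and 1 fragments against 10 and 9, a difference of 0.23 relative to the median that did not pass (limma adjusted p = 0.448).

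Phf17 and Sfmbt2 are chromatin proteins. Phf17 is a PHD finger scaffold of the HBO1 histone acetyltransferase complex, and Sfmbt2 is a Polycomb group protein with MBT repeats that is needed for the trophoblast. Phf17 was listed at 0 in both control oocyte libraries, stood at 0 and 0.0550 FPKM in control zygotes and reached 0.839 and 1.35 in controls at 48 h. In the knockout it stood at 0.0192 and 0.0136 in full-grown oocytes, at 0 in both zygote libraries and at 0.0366 and 0.0357 at 48 h. The 48 h controls, on about 16 and 29 fragments, stood apart from all other libraries of the table, and each 48 h knockout library held about 1 fragment. Without a filter Phf17 rose by 1.02 from zygote to 48 h in controls (limma adjusted p = 4.48e-05). It fell by 1.04 in the knockout at 48 h relative to the all-gene median (limma adjusted p = 5.72e-05), and the steps differed by -0.99 relative to it (limma adjusted p = 0.000749). These 3 calls held in each fit that left out 1 library, 4, 4 and 8 fits, with limma adjusted p of at most 0.00402. Sfmbt2 was at 0.0363 and 0.279 FPKM in 48 h controls against 0.0253 and 0.0248 in the knockout, about 1 and 8 fragments against 1 and 1, a difference of -0.21 relative to the median (limma adjusted p = 0.130). In zygotes Sfmbt2 was at 0 in both controls and at 0.156 and 0.148 in the knockout, about 4 fragments each (0.20, limma adjusted p = 0.134).

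**Figure D2:**
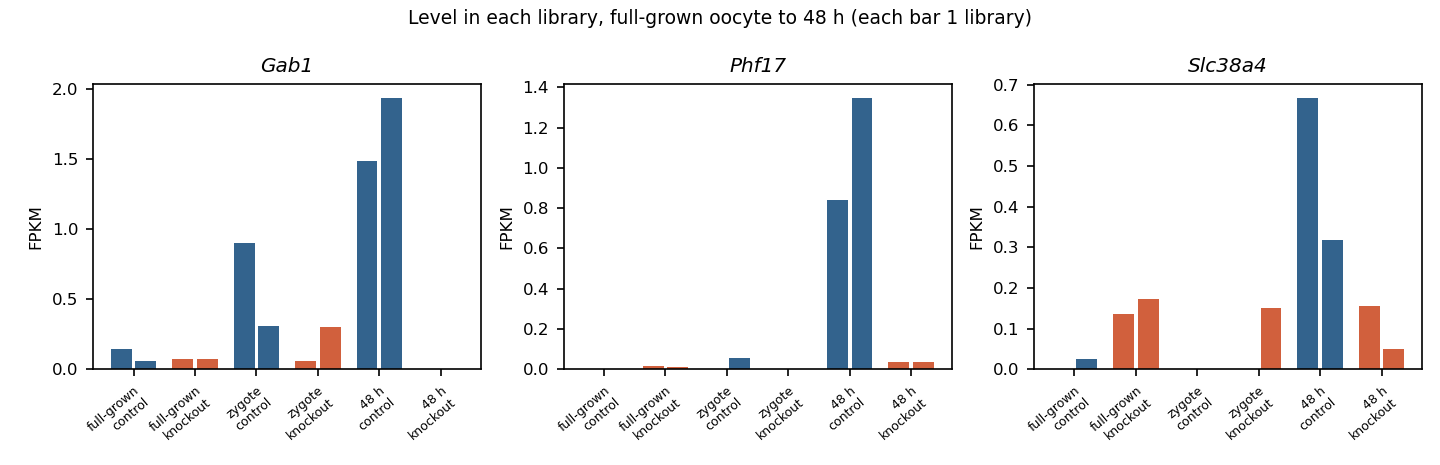
FPKM of Gab1, Phf17 and Slc38a4 in each library from full-grown oocyte to 48 h, each bar 1 library, blue for control and orange for knockout, on a linear axis from 0. The control bars rise at 48 h for the 3 genes, to 1.48 and 1.93 FPKM for Gab1, while no knockout bar exceeds 0.155 FPKM there.

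Without a filter, limma called 3 of the 10 members lower at 48 h, Gab1, Phf17 and Slc38a4, where it called 22% of all genes lower and 49.8% in either direction. The same 3 were higher at 48 h than in zygotes among controls, against 24.4% of all genes higher and 52.1% in either direction. The steps differed for 4, Gab1, Phf17, Slc38a4 and Sfmbt2 (-0.39 relative to the median, limma adjusted p = 0.0309), with 20.1% of all genes lower and 43.3% in either direction. So 3 of 10 was near the background at 48 h and for the control step. The count of 4 was above the 20.1% called lower but not above the 43.3% called in either direction. It rested on single libraries and moved when 1 was left out. Over those 8 fits the unshifted difference ran from -0.70 to -0.36 for Slc38a4 and from -0.52 to -0.22 for Sfmbt2. Both knockout libraries lay below both controls at 48 h for 4 of 10 members above 0, these same 4 genes (30.4% of all genes), and above them for Sh3gl3 and Runx1 (41.6%). For Sfmbt2 the nearest libraries, 0.0363 FPKM in a control and 0.0253 in the knockout, held about 1 fragment each. Sh3gl3 stood at 0 FPKM in both controls and at 0.000133 and 1.10 in the knockout, about 0 and 9 fragments. The order of these genes is therefore not resolved at this depth. The knockout and the cell stage cannot be told apart here: the 10 oocyte markers summed to 236 and 232 FPKM in 48 h controls and to 18183 and 15043 in the knockout, and the 6 markers of the 2-cell stage to 174 and 121 against 5.94 and 31.1.

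Runx1, Otx2 and Sall3 are transcription factors: Runx1 is required for blood formation, Otx2 for the anterior head and for the exit from naive pluripotency, and Sall3 is a zinc finger protein of the spalt family. Runx1 in full-grown oocytes stood at 0.00753 and 0.0179 FPKM in controls against 0.200 and 0.310 in the knockout, about 1 fragment in each control against 21 and 23. In zygotes it was listed at 0 in both controls and stood at 0.381 and 0.152 in the knockout, about 8 and 3 fragments. At 48 h it was at 0 and 0.0879 against 0.173 and 0.218, about 0 and 2 fragments against 5 and 6, and in ST embryos at 1.27 and 1.09 against 2.19 and 2.06. Both libraries labelled knockout thus lay above both controls at each of these 4 stages, while at P7 the order was mixed, 0.0823 and 0.512 FPKM against 0 and 0.183. Taken stage by stage, the same held for 17.8%, 28.6%, 41.6% and 16.1% of all genes. The share of genes above at all 4 stages was not computed. Without a filter Runx1 rose in knockout zygotes by 0.33 (SE 0.088, limma adjusted p = 0.0362), where 17% of all genes were called and 9.78% were higher. That call was lost without either control zygote library (limma adjusted p = 0.119 and 0.109) or the first knockout library (limma adjusted p = 0.1). Beside it in zygotes, the 10 oocyte markers summed to 6689.7 and 6290.1 FPKM in controls against 16613 and 17661 in the knockout, with 7 called higher and none lower. The 14 granulosa and cumulus markers summed to 18.8 and 25.1 against 33.9 and 31.8, with 3 of 8 tested called higher, none lower, and Inha, Amh and Amhr2 at 0 in all 4 libraries. Their part in the Runx1, Sfmbt2 and Slc38a4 values of zygotes, and that of the unequal zeros, was not tested. The differences in full-grown oocytes, 0.34 relative to the median (limma adjusted p = 0.112), and at 48 h, 0.16 relative to it (limma adjusted p = 0.0998), did not pass.

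**Figure D3:**
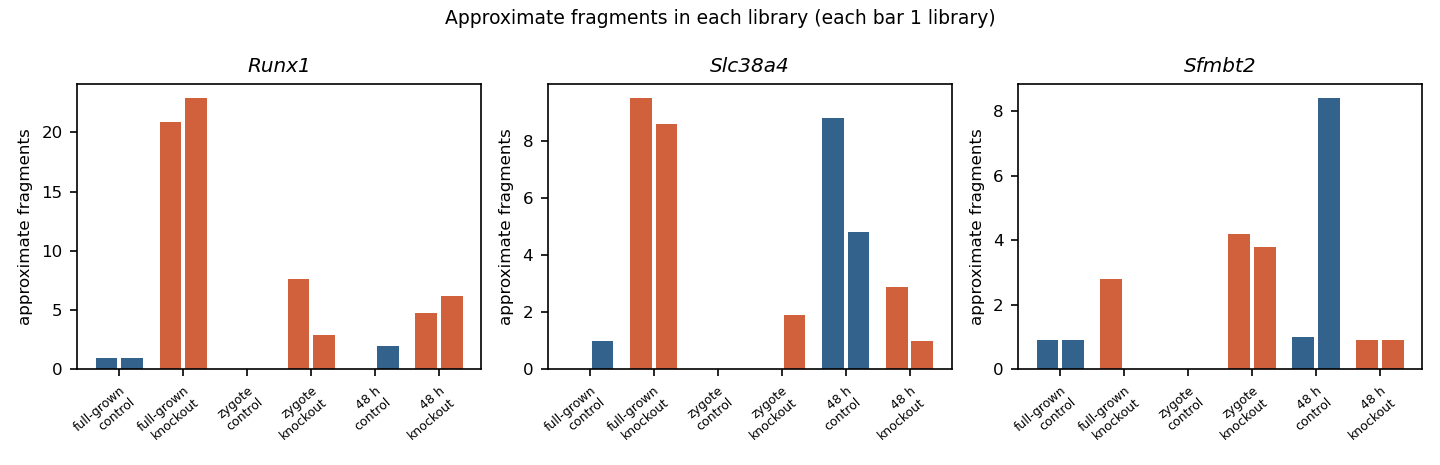
Approximate fragments behind Runx1, Slc38a4 and Sfmbt2 in each library from full-grown oocyte to 48 h, each bar 1 library, blue for control and orange for knockout, on linear axes from 0 that differ between genes. Runx1 has 1 fragment in each control oocyte library against 21 and 23 in the knockout, and no value of the 3 genes exceeds 23.

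Otx2 was at 0 in all 4 P7 libraries, all 4 zygote libraries and the Dnmt3l pair, and its highest level before the 8-cell stage was 0.182 FPKM, in a 48 h control. Sall3 was highest at P7, 0.729 and 0.882 FPKM in controls against 0.746 and 0.229, and listed at 0 in all 4 ST libraries. In zygotes Sall3 stood at 0.0392 and 0.0435 FPKM in controls and at 0.119 and 0.126 in the knockout, about 1 fragment against 3, a difference that did not pass (0.11, limma adjusted p = 0.391). Prdm11, of the PR domain family, stayed at or under 0.266 FPKM in all 22 libraries and was at 0 in 19 of them. Sh3gl3, an endophilin that bends membranes during endocytosis, and Smoc1, a secreted calcium-binding protein of basement membranes, were oocyte genes of P7, described next.

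In growing oocytes of P7, 5 members passed the filter and none of the 5 was called, in a comparison where 0.0834% of 10794 genes were. Sh3gl3 had the highest group means, at 4.40 and 15.0 FPKM in controls against 13.8 and 12.6, a spread between the controls that covers both libraries labelled knockout (0.61, 95% interval -0.33 to 1.56, limma adjusted p = 0.779). Phf17 stood at 4.49 and 4.10 FPKM against 3.26 and 4.25 (-0.16, limma adjusted p = 0.963). Gab1 was at 1.49 and 1.09 against 1.31 and 1.60, Sfmbt2 at 2.15 and 1.42 against 1.33 and 3.32, and Smoc1 at 2.04 and 0.827 against 1.10 and 1.46. No member had both libraries labelled knockout above both controls or below them (13.9% and 17.8% of all genes). The intervals of the 5 differences reached from -1.16 to 1.56, so changes within these bounds are not excluded. Markers of granulosa and cumulus cells summed to 1.99 to 3.62 FPKM over these libraries, with Amh and Fshr at 0 in all 4.

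In full-grown oocytes the levels of P7 were gone in both genotypes: Sh3gl3 stood at 0.208 and 0.0270 FPKM in controls and at 0.337 and 0.529 in the knockout (about 8 and 0 fragments against 10 and 11), and Phf17 at 0.0192 or less in every library. Smoc1 stood at 0.174 and 0.148 against 0.0467 and 0.0442, about 14 and 5 fragments against 3 and 2, the 1 member with both knockout libraries below both controls (38.7% of all genes). Phf17, Slc38a4, Sh3gl3 and Runx1 lay above them (17.8%), 4 of 9 members above 0. Gab1, the tested member, did not pass (0.15 relative to the all-gene median, limma adjusted p = 0.948, with 6.92% of genes called), and without a filter limma called none of the 10 (2.57% of all genes). Before adjustment, Runx1 alone of the 10 was under 0.05 in that fit. Granulosa markers differed between the genotypes beside these values: Inha stood at 14.8 and 15.1 FPKM in controls against 0.816 and 0.519, and Fshr at 0.415 and 0.180 against 9.49 and 8.25. The 14 markers summed to 36.9 to 41.7 FPKM over the 4 libraries, and Amh and Foxl2 were at 0 in both knockout libraries. Their part in the Runx1 and Slc38a4 values was not tested.

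Zygotes had 3 members with both knockout libraries above both controls, Sfmbt2, Sall3 and Runx1 (28.6% of all genes), and 1, Gab1, below (24.9%), of 9 above 0. Between genotypes 31.6% of tested genes were called, and Gab1 was not. From full-grown oocyte to zygote, Gab1 changed by 0.58 in controls relative to the median without passing (limma adjusted p = 0.0576, with 42.5% of genes called) and by 0.035 in the knockout (limma adjusted p = 0.730, with 17.7% called). The steps did not differ by this test (-0.59, limma adjusted p = 0.436, with 9.39% called). From zygote to 48 h in the knockout, 0.205% of genes were called and Gab1 was not among them.

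In the Dnmt3l pair, 1 library each and so with no test, no member reached 1 FPKM, and 1.95% of the 9708 genes that did differed by at least 1 on the log2 scale. Gab1 stood at 0.143 FPKM in the control and 0.0191 in the library labelled knockout, Sall3 at 0.166 and 0.0400, and Runx1 at 0.103 and 0.0398. Slc38a4 and Smoc1 stood at 0.122 and 0.102 and were listed at 0 in the other library. Sfmbt2 went the other way, at 0.0227 and 0.0564. All of these rest on about 10 fragments or fewer. The 14 granulosa and cumulus markers summed to 93.1 FPKM in the control, with 8 at 1 FPKM or more. In the library labelled knockout they summed to 37.1, with 4 at that level. Their part in these values was not tested.

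At the 8-cell stage after spindle transfer, 6 members were expressed: Gab1, Phf17, Sfmbt2, Slc38a4, Otx2 and Runx1. Phf17 stood at 1.17 and 2.59 FPKM in controls and at 8.18 and 14.0 in the libraries labelled knockout, 1.88 ± 1.01 against 11.1 ± 4.11 (SD, n = 2). The libraries labelled knockout did not overlap with the controls, although Setd2 itself stood at like levels in both. The difference of 2.07 (SE 0.43, 95% interval 1.06 to 3.08) ranked 84th of 9398 genes by p but did not pass after adjustment (limma adjusted p = 0.187, from 0.0728 to 0.727 over 12 alternatives). In this comparison 0% of genes were called by limma, with 1243 at an unadjusted p under 0.05. Leaving out the first or the second control gave 49 and 29 calls, and leaving out either library labelled knockout gave 0.

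Of the other 5 expressed members, none passed. Gab1 stood at 6.26 and 7.80 FPKM against 3.17 and 7.37 (-0.44, 95% interval -1.44 to 0.56, limma adjusted p = 0.698). Slc38a4 was at 3.40 and 6.85 against 2.53 and 10.3, where the libraries labelled knockout enclose both controls (0.10, limma adjusted p = 0.963). Otx2 stood at 2.49 and 3.72 against 4.19 and 4.08 (0.34, limma adjusted p = 0.733), and Runx1 differed by 0.52 (95% interval -0.34 to 1.39, limma adjusted p = 0.566). Sfmbt2 was at 2.03 and 1.88 against 1.68 and 2.83 (0.11, limma adjusted p = 0.936). Phf17, Otx2 and Runx1 had both libraries labelled knockout above both controls (16.1% of all genes) and no member had them below (21.2%), of 7 above 0. The members' median difference was 0.23, beside -0.075 over all genes. Smoc1 was at 0 and 0.720 FPKM against 0.407 and 0.726, and Sall3, Sh3gl3 and Prdm11 were listed at 0 in all 4 libraries. Markers of other stages also differed between these libraries: the oocyte markers summed to 24.1 and 37.0 FPKM in controls against 56.4 and 68.5, and the 2-cell markers to 9.85 and 143 against 22.03 and 8.21. Their part in the Phf17 difference was not tested.

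**Figure D4:**
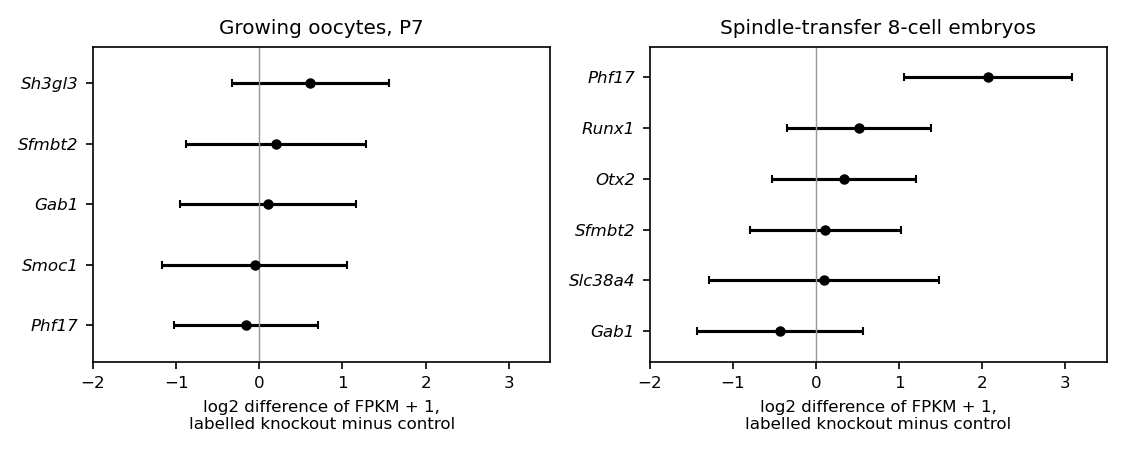
Difference of log2(FPKM + 1), libraries labelled knockout minus controls, for the members tested in growing oocytes (left) and in 8-cell embryos made by spindle transfer (right), with bars for the 95% interval from limma before adjustment over genes. Every interval at P7 includes 0, and at the 8-cell stage the interval of Phf17, 1.06 to 3.08, is the 1 that does not.

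Xist, the RNA that silences an X chromosome and another gene known to carry a maternal H3K27me3 imprint, was listed at 0 in all full-grown oocyte and zygote libraries. At 48 h it stood at 0.344 and 0.175 FPKM in controls and at 0.0160 and 0.0835 in the knockout, and without a filter it fell by 0.30 relative to the all-gene median (limma adjusted p = 0.00705). In ST embryos it stood at 4.001 and 0.0696 FPKM against 7.25 and 7.73 (1.88, limma adjusted p = 0.328). The sexes of the embryos are not given, and their part in the Xist values was not tested.

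Set side by side across the separately normalized tables, as values only, group means of Gab1 ran from 7.03 ± 1.09 FPKM in ST controls and 5.27 ± 2.97 in ST libraries labelled knockout, which overlap, through 1.71 ± 0.316 in 48 h controls and 1.46 ± 0.211 and 1.29 ± 0.287 at P7 in libraries labelled knockout and control, to 0.607 ± 0.417 in control zygotes (SD, n = 2). The 48 h controls and both P7 groups overlapped in their libraries. Phf17 was highest in ST libraries labelled knockout, followed at P7 by controls (4.30 ± 0.270) and libraries labelled knockout (3.75 ± 0.701), which overlap, and then by ST controls. Sfmbt2 was alike at P7 and the 8-cell stage, where its 4 group means lay between 1.78 and 2.33 FPKM with overlapping libraries. Slc38a4, Otx2 and Runx1 were highest at the 8-cell stage and Sh3gl3, Smoc1 and Sall3 at P7. Within the 12-library table no member reached the group mean of 2 FPKM set for a search for genes of like pattern, so the limit was lowered to 1 FPKM after the values were seen. Over the 12 libraries and 11091 candidate genes, those with the smallest root mean square difference in centred log2(FPKM + 1) were Nkap (0.13) and Acat3 (0.15) for Gab1, and Ccdc125 (0.064) and Ppp1r36 (0.065) for Phf17.

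Most of the machinery that sets and reads the mark passed the filter. Of 12 subunits and cofactors of PRC2, the H3K27 methyltransferase, 11 were tested in the 12-library table. None passed between genotypes in full-grown oocytes or at P7, nor did any of the 9 tested at the 8-cell stage. Of all genes, 6.92% were called in full-grown oocytes, 0.0834% at P7 and 0% at the 8-cell stage. These counts therefore do not set the list apart. In zygotes 3 fell and none rose, with a median of -0.37 over the list beside 0.014 over all genes, of which 31.6% were called in either direction. Suz12, which the complex needs for stability, stood at 85.9 and 44.5 FPKM in controls against 19.2 and 15.6 (-1.78, limma adjusted p = 0.00209). Ezh2, the catalytic subunit, stood at 207 and 148 against 92.6 and 81.1 (-1.01, limma adjusted p = 0.0075), and the accessory Phf19 at 2.59 and 1.48 against 0.525 and 0 (-1.27, limma adjusted p = 0.00533). The count was also 3 with libraries rescaled by median ratios and 5 with quantile normalization. At 48 h 5 rose and 3 fell (73.8% called), a split of 4 and 4 after rescaling by median ratios: Rbbp7 (2.44 relative to the median, limma adjusted p = 5.93e-07) and Ezh2 (0.92, limma adjusted p = 0.00025) rose, while Mtf2 (-3.36, limma adjusted p = 2.51e-07) and Suz12 (-2.65, limma adjusted p = 6.16e-05) fell.

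Both H3K27 demethylases, Kdm6a and Kdm6b, rose in the knockout at 48 h, where 73.8% of all genes were called. Kdm6b stood at 4.38 and 3.68 FPKM in controls against 23.9 and 18.3 (1.70 relative to the median, limma adjusted p = 4.72e-05), and Kdm6a at 8.58 and 6.92 against 26.4 and 21.0 (1.06, limma adjusted p = 9.28e-05). In zygotes Kdm6b fell instead, 50.6 and 29.3 against 23.4 and 17.5 FPKM (-0.90, limma adjusted p = 0.0359). Of 20 subunits of PRC1, which ubiquitinates H2A and binds H3K27me3, 16 were tested. In full-grown oocytes, with 6.92% of all genes called, 1 rose, Bmi1 (1.20 relative to the median, limma adjusted p = 0.0283), and 1 fell, Phc3 (-0.69, limma adjusted p = 0.0237, not called with quantile normalization). In zygotes 3 rose and 1 fell (31.6% called), among them L3mbtl2 (1.52, limma adjusted p = 0.00544) and Pcgf3 (-1.23, limma adjusted p = 0.00337). At 48 h 8 rose and 2 fell (73.8% of all genes called), which became 4 and 5 with libraries rescaled by median ratios, so no direction is given for the list.

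Close paralogs of the members were more abundant than the members themselves in full-grown oocytes, 151.6 to 266.1 FPKM summed over 24 genes, and 15 were tested. Called lower in full-grown oocytes were 2 of the 15, Otx1 and Gab2, beside 6.92% of all genes called in either direction. Otx1 stood at 8.59 and 8.07 FPKM in controls against 1.15 and 1.82 (-1.74 relative to the median, limma adjusted p = 0.028). Gab2 stood at 4.90 and 5.62 FPKM against 1.85 and 1.86 (-0.94, limma adjusted p = 0.0283) and was not called after either rescaling. In zygotes 5 rose and 3 fell (31.6% of all genes called), among them the endophilins Sh3gl1 (2.40, limma adjusted p = 0.000502) and Sh3gl2 (-1.72, limma adjusted p = 0.000962) in opposite directions. At 48 h 8 rose and 3 fell (73.8% called). Gab3, a paralog of Gab1, also fell, with 2.32 and 5.66 FPKM in controls and 0 in both knockout libraries (-2.66 relative to the median, limma adjusted p = 1.26e-05), while Smoc2 stood at 1.26 and 0.720 against 42.4 and 38.9 (3.97, limma adjusted p = 1.44e-07). Of 22 partners of the members, 18 were tested at 48 h, where 5 rose and 8 fell (73.8% of all genes called), a split of 2 and 10 after rescaling by median ratios. Gab1's partner Sos1, an activator of Ras, stood at 15.7 and 16.2 FPKM against 0.443 and 0.260 (-4.09 relative to the median, limma adjusted p = 2.62e-08). Ing4 of the Phf17 complex (36.6 and 39.9 against 2.18 and 4.003 FPKM, limma adjusted p = 1.09e-06) and Cbfb, the partner of Runx1 (10.54 and 11.5 against 1.30 and 1.89 FPKM, limma adjusted p = 8.69e-06), also fell, while Egfr, a receptor upstream of Gab1, rose (1.78 and 0.657 against 22.9 and 28.3 FPKM, limma adjusted p = 2.77e-06).

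For comparison, 20 genes imprinted from maternally methylated regions were taken as a list, of which 14 were tested in the 12-library table. In full-grown oocytes 3 rose and none fell (6.92% of all genes called), in zygotes 5 rose and 1 fell (31.6%), and at 48 h 6 rose and 5 fell (73.8%). None of the 9 tested at the 8-cell stage passed, where 0% of all genes were called. The list's medians between genotypes were -0.081, 0.34 and 0.38 at the 3 stages, beside -0.19, 0.014 and 0.43 over all genes. These genes reached 1 FPKM in 8 to 13 cases of 20 per library of that table, where the H3K27me3-imprinted genes reached it in 0 to 2 cases of 10. The difference between the lists was not tested.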

How the data were processed

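The authors deposited FPKM values for 22592 gene symbols in 4 tables, and TopHat2 2.0.11, Cufflinks 2.0.2 and the mm9 build appear in the submitters' processing notes without the role of each. No counts were used. FPKM does not separate alleles, and overlapping or antisense genes cannot be told apart because the strand setting is not given in the sources used here. Libraries were grouped by their titles and column names, and both Dnmt3l columns carry the word merge, so each may pool libraries. The members, lists and tests were chosen with earlier results of these data known.

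Values were transformed as log2(FPKM + 1), which understates changes of low genes. The filter kept genes that reached 1 FPKM in 2 or more libraries of the table. The fit used limma (version 3.58.1, R 4.3.3) with a variance trend on the mean, each table by itself and the 12 libraries of full-grown oocytes, zygotes and 48 h embryos together. Two-sided p-values received Benjamini-Hochberg adjustment across every gene tested, and a gene was called under 0.05. They measure only the spread between libraries, which may be technical. With 2 libraries against 2, the smallest exact permutation p is 0.33, so every call leans on variance shared between genes. Where the median of all genes was shifted by over 0.1, changes are given relative to it and the p is of the unshifted change.

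Alternatives were a pseudocount of 0.1 FPKM, no filter, a filter at 5 FPKM, rescaling by median ratios, quantile normalization, no trend, a replicate block, the compared groups alone, and leaving out each library. Chosen after seeing the data were no filter with the pseudocount of 0.1 FPKM and the unfiltered fit without each library. Named genes are the 10 members, Xist, up to 4 called genes per list and comparison, ranked by adjusted p, and the 2 genes most alike in pattern; Cbfb, Inha, Fshr, Amh, Amhr2 and Foxl2 fall outside this rule and were chosen after their values were seen. Approximate fragments came from the smallest FPKM steps of 3164 genes with 1 transcript and the longest GENCODE vM21 transcript of each member. Promoters are from RefSeq on GRCm38.p6 and served for sequence only, since the notes name mm9. Simulated data drew 200 genes from those above a set control level, which no member reached in the 12-library table. The 200 genes were changed 4-fold (2 on the log2 scale). The fit recovered 94% of them at P7 (10430 genes), 98% at 48 h (12001) and 93.5% in 8-cell embryos (9011). False calls numbered 6, 10 and 14 in that order. No separate rate was taken at the levels of the members, so how often such a change in them would be found was not tested.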

Additional observations from a re-analysis of the deposited data

Results flagged for a closer look

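Gab1 was singled out because its step from zygote to 48 h differed between genotypes by the test of the difference itself (limma adjusted p = 0.00879). The difference was -1.004 unshifted and -1.37 relative to the all-gene median. Gab1 was tested in that fit only because both 48 h controls exceeded 1 FPKM, which builds in part of the difference. With no filter it was again -1.004 unshifted, and -1.03 relative to the all-gene median of that fit (limma adjusted p = 0.0126). In controls Gab1 went from 0.902 and 0.312 FPKM to 1.48 and 1.93, and in the knockout from 0.0571 and 0.302 to 0 in both libraries. The steps differed for 66.2% of all genes tested, and the knockout embryos were at the 1-cell stage at 48 h, so genotype and stage cannot be told apart. The adjusted p lay between 0.0012 and 0.0347 over 14 alternatives.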

How the results depend on the processing

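Of 229 values of members under alternatives, 223 kept their side of the threshold, 4 newly passed it, 2 no longer did and none turned direction as a call. With no filter, and with no filter and a pseudocount of 0.1 FPKM, zygotes had 1 (0 as reported), 48 h had 3 (1), control zygote to 48 h had 3 (1) and the difference of that step had 4 (1). With the pseudocount of 0.1 FPKM and no filter, the 3 of the control step were Phf17, Slc38a4 and Sfmbt2, and Gab1 was lost (limma adjusted p = 0.0597). From full-grown oocyte to zygote in controls Gab1 was called with a pseudocount of 0.1 FPKM, with quantile normalization and without the second control zygote, 1 instead of 0. Leaving out 1 library gave 0 to 1 in zygotes and 0 to 1 for that step. Without a filter it gave 0 to 1 in zygotes (1 with all libraries), 3 to 4 at 48 h (3), 3 to 4 for the control step to 48 h (3) and 2 to 5 for the difference of that step (4), and the genes called were not the same in every fit. The cause of these moves was not tested beyond the larger number of genes that no filter admits.

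The replicate numbers did not pair the libraries by the check used (correlations of deviations of 0.002 for the 48 h libraries, 0.042 for P7, 0.072 for the 8-cell stage, 0.074 for zygotes and 0.186 for full-grown oocytes). With a replicate block, 0 members instead of 1 were called from zygote to 48 h in controls (Gab1 0.65 unshifted, limma adjusted p = 0.0669). No other count of called members moved. Of all genes, the block called 129 instead of 9 at P7 and 15 instead of 0 in 8-cell embryos. In 8-cell embryos leaving out the first or second control gave 49 and 29 genes called.

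A filter at 5 FPKM left no member to test in the 12-library table, and leaving out a 48 h control left none for 48 h comparisons, so these gave no value, and fits of the compared groups alone likewise gave none where no member then passed the filter. Depth limits every level under 1 FPKM.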
